A study of Homo sapiens with 4 samples.

Results

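BCR, ABL1 and 6 genes for adaptor and signalling proteins that assemble on the BCR-ABL1 fusion kinase (CRKL, GRB2, GAB2, CBL, SHC1 and SOS1) were followed in K562, a human chronic myeloid leukaemia cell line that carries the fusion. The 8 genes were taken by name, by a rule that uses no measured value but was written with earlier results of these data known. All 8 were found among the 11213 gene names of the deposited table, with 27 of its 32551 listed transcripts, and all of these passed the filter on low values. The study comprised 4 RNA-seq libraries of K562 cells transduced with lentivirus in the presence of polybrene and selected with puromycin: 2 libraries with a control hairpin, labelled shControl and wild type, and 2 with a hairpin against PHF8, labelled shPHF8 and PHF8 knockdown. The protocol names 1 virus against PHF8, but whether shPHF8 1 and shPHF8 2 both carry it, and whether any libraries came from separate cultures, is not said, so p-values measure only the spread between these samples, which may be technical. All groups share the cell line, the virus and the drug, and no untransduced cells were analysed here.

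BCR-ABL1 arises when the front part of BCR is joined to ABL1 from the second ABL1 exon onward, which leaves a tyrosine kinase that is permanently active. The fused message is driven by the BCR promoter. A phosphorylated tyrosine in the BCR part holds the adaptor GRB2, which brings SOS1, an exchange factor that loads RAS with GTP, and GAB2, a scaffold that recruits PI3-kinase and the phosphatase SHP2. CRKL binds proline-rich stretches of the ABL1 part and is a main substrate of the kinase, SHC1 is a phosphotyrosine adaptor that offers a further site for GRB2, and CBL is a ubiquitin ligase that also acts as an adaptor. PHF8 removes methyl groups from histone tails and acts at promoters, and the series asks whether it bears on transcription of the fusion gene.

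The window at the start of BCR is shown because the fusion is transcribed from it. It is a RefSeq promoter window on GRCh38.p14, plus strand, chr22:23180259-23180558, running from 250 bases before to 50 bases after the gene start, and capitals mark each CG dinucleotide.
BCR promoter: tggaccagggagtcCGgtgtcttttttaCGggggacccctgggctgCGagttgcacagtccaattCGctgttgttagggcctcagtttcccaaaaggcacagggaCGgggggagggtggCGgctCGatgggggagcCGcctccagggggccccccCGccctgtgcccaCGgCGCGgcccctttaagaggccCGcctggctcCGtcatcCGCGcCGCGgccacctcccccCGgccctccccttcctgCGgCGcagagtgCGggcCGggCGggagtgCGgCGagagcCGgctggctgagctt
This window holds 27 CG dinucleotides, where the median of 35116 such windows is 14, and 73.8% of them hold as many or fewer. It contains the first base of the transcript model BCR-002 but not that of BCR-001, whose model begins further upstream. No binding or methylation data were analysed here, so the count describes the sequence only.

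The next sequence is shown because it separates the 2 BCR transcripts that held most of the BCR TPM in the shControl and in the shPHF8 libraries. It is the 132-base coding exon 16 of the 23 exons of BCR-001, which the 22-exon BCR-002 lacks (GENCODE release 29 on GRCh38, plus strand, chr22:23295024-23295155).
BCR-001 exon 16: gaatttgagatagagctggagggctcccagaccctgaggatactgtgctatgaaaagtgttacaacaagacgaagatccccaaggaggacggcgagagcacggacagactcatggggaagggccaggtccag
In K562 the BCR part of the fused message is known to end upstream of this exon, so the fused message does not carry it. The models also differ at their ends, with 7082 bases in BCR-001 and 4708 in BCR-002, mostly through the last exon (2605 and 518 bases). BCR-001 codes for 1271 amino acids and BCR-002 for 1227.

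The coding starts of ABL1 are shown because they separate its 2 full-length transcripts, and neither is kept in the fusion. Capitals mark the start codon (GENCODE release 29 on GRCh38, plus strand, chr9:130835447-130835525 for ABL1-001 and chr9:130714320-130714455 for ABL1-002).
ABL1-001 first exon, coding part: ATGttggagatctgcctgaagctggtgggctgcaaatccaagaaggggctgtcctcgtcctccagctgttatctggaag
ABL1-002 first exon, coding part: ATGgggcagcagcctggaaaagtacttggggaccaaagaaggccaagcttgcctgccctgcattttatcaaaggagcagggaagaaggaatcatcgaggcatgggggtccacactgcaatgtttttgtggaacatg
ABL1-002 encodes the form whose start carries a myristoylation signal, a lipid anchor that takes part in holding normal ABL1 inactive.

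PHF8 itself was at 25.9 and 22.5 TPM in the shControl libraries and at 6.06 and 6.42 TPM in the shPHF8 libraries (TPM is a transcript's share of its library after allowing for transcript length, with an equal sum for each library). The shPHF8 libraries thus held 25.8% of the control mean. TPM hold no record of the reads behind them, so the depth is unknown. Of the 10972 genes that averaged 1 TPM or more, 0.00% passed limma with Benjamini-Hochberg adjustment at 0.05, while 1086 (9.90%) were higher and 1328 (12.1%) lower at an unadjusted limma p under 0.05. All 8 erythroid and K562 markers reported, among them GATA1, KLF1 and HBG1, were present and 7 of them lay above both controls (GATA1 below), with summed levels of 8502 and 9026 TPM in shControl and 13554 and 12913 TPM in shPHF8 libraries. For granulocytes and monocytes 5 of 10 markers were measured, and all 5 lay below both controls in both shPHF8 libraries. Their sums were 143 and 161 against 83.1 and 77.9 TPM. The defining markers CD14, CSF1R, MPO, ELANE and S100A8 were not among the 11213 listed gene names, so they had no value in any library. Both measured lymphocyte markers of 6 and 1 of 2 measured stromal markers of 6 were lower as well, with sums of 30.4 and 34.4 against 15.6 and 11.0 TPM and of 9.88 and 13.0 against 3.42 and 2.52 TPM. The part of these shifts in the results below was not tested. All libraries are of the K562 line, and fewer of its cells with a marker's RNA cannot be told apart from less RNA per cell.

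For none of the 8 genes did the difference between shPHF8 and shControl libraries exceed the spread between libraries by the test used. By limma on summed TPM with Benjamini-Hochberg adjustment over all genes 0 were higher and 0 lower. At an unadjusted limma p under 0.05 it was also 0 and 0, against 9.90% and 12.1% of all genes. CRKL lay higher in both shPHF8 libraries than in both controls, SHC1 and CBL lay lower, and the other 5 overlapped. That is 1 of 8 above and 2 of 8 below, against 26.0% and 29.3% of all genes tested. The median log2 fold change of the 8 (shPHF8 minus shControl, on the scale of log2 of TPM + 1, which understates changes at low TPM) was -0.10, and that of all genes was -0.02. With 200 of 10972 genes altered in simulated data of this design, limma called 27.2% of those altered by a log2 value of 1 and 61.6% of those altered by 2. Changes as small as those of the 8 genes were not simulated, so no share called can be given for them. The lack of a call therefore does not show that a gene was unchanged. In the measured data PHF8 itself was not called (log2 fold change -1.80, limma with Benjamini-Hochberg adjusted p = 0.0643), so the simulated shares need not hold there.

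**Figure D1:**
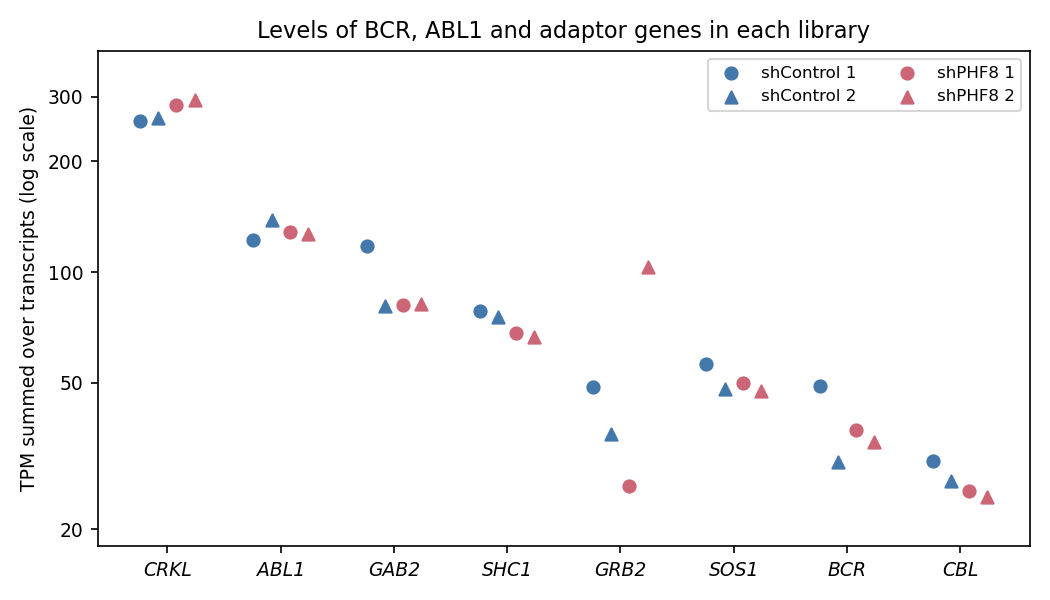
TPM summed over transcripts (vertical log axis) of the 8 genes in each of the 4 libraries, ordered by mean level, with circles for libraries numbered 1 and triangles for those numbered 2. CRKL is the highest in every library at 258 to 294 TPM, and GRB2 spans the widest range, from 26.3 to 103 TPM, between the 2 shPHF8 libraries.

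The 8 genes covered a wide range of levels. By mean over the 4 libraries, on the length-corrected TPM scale, the order was CRKL, ABL1, GAB2, SHC1, GRB2, SOS1, BCR and CBL, from 275 to 26.9 TPM. CRKL stood at the 95.2 percentile of the genes tested and CBL at the 47.2 percentile. CRKL was 1.89 to 2.32 times as high as ABL1 within each library. The ranges of ABL1, GAB2 and SHC1 did not touch, although ABL1 exceeded GAB2 by only 1.04-fold in shControl 1. SHC1 and GRB2, GRB2 and SOS1, SOS1 and BCR, and BCR and CBL were neighbours whose ranges over the libraries overlapped.

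BCR and ABL1, the genes joined in the fusion, gave a mixed picture for BCR and a steady one for ABL1. BCR (ENSG00000186716, chromosome 22) summed to 49.1 and 30.4 TPM in the shControl libraries and to 37.3 and 34.6 TPM in the shPHF8 libraries. The knockdown values lay between the controls, and shControl 1 was the highest. The log2 fold change was -0.10 ± 0.26 (SE), and it was 0.23 without shControl replicate 1. The controls differed from each other by 0.67 on the log2 scale, and 88.2% of genes differed by as much or less. ABL1 (ENSG00000097007, chromosome 9) summed to 122 and 138 TPM in shControl and to 128 and 127 TPM in shPHF8 libraries. Again the knockdown values lay between the controls, with a log2 fold change of -0.03 ± 0.09 (SE), which was 0.063 without shControl replicate 2. ABL1 was thus 2.49 and 4.55 times BCR in the controls and 3.45 and 3.67 times BCR in the shPHF8 libraries, a ratio within a library that does not depend on how the library was scaled. The mean log2 ratio differed by 0.08 between groups (shPHF8 minus shControl), and by -0.36 without shControl replicate 1 and 0.51 without shControl replicate 2, so it has no stable direction. Sums for either gene mix the fused message with the normal one. GENCODE release 29 also names 9 BCR pseudogenes, so reads may have been divided between BCR and its partial copies.

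**Figure D2:**
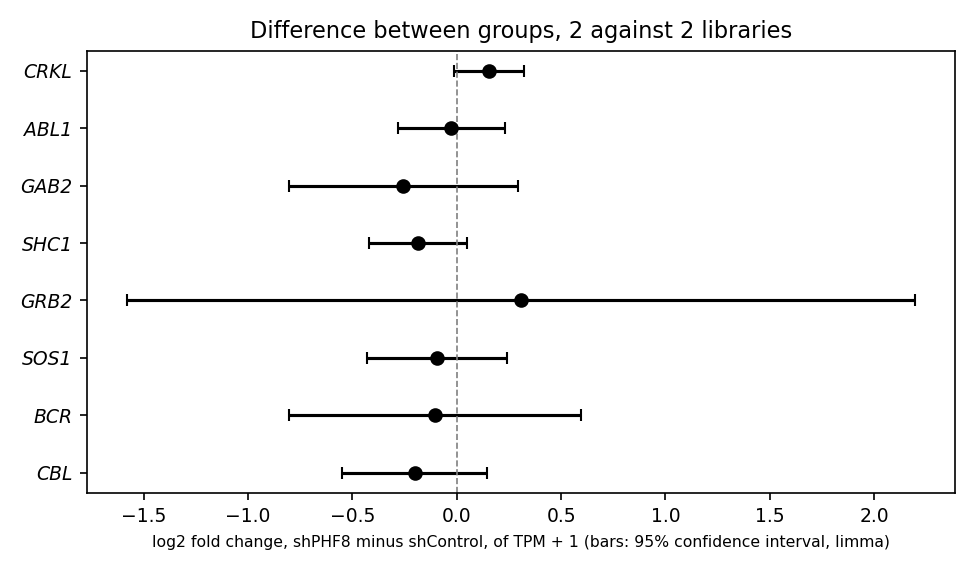
Log2 fold change of TPM + 1, shPHF8 minus shControl (horizontal axis), for the 8 genes, with points for the limma estimate and bars for the 95% confidence interval from 2 against 2 libraries. The dashed line marks 0, which all 8 intervals include, and the interval of GRB2 runs from -1.58 to 2.20 while that of CRKL runs from -0.01 to 0.32.

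Behind the similar sums, the BCR transcripts to which TPM were assigned differed between the groups. The fused message is not listed on its own, so its reads may have been assigned to any of the BCR models. As BCR-001 and BCR-002 differ at their ends as well as in exon 16, their values do not measure use of that exon in normal BCR. BCR-001 was at 46.9 and 23.7 TPM in the shControl libraries and at 9.52 and 11.0 TPM in the shPHF8 libraries. The groups did not overlap, and the controls themselves differed widely. BCR-002, which lacks the exon 16 printed above, was listed at 0 in both controls and at 22.0 and 20.5 TPM in the shPHF8 libraries. It made up 59.1% and 59.3% of BCR there, while the share of BCR-001 was 95.6% and 77.8% in controls and 25.5% and 31.8% in shPHF8 libraries. BCR-201, for which no model was matched, was listed at 0 in shControl 1 and was at 5.07 TPM in shControl 2, 3.43 TPM in shPHF8 1 and 3.09 TPM in shPHF8 2. BCR-006, a fragment model of 8 exons, was at 2.19, 1.69 and 2.30 TPM and listed at 0 in shPHF8 2.

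Over the 30266 transcripts with a mean of at least 1 TPM, neither BCR transcript passed limma with Benjamini-Hochberg adjustment (adjusted p = 0.0892 for BCR-002, 0.0865 to 0.575 over its alternatives, and 0.362 for BCR-001), and 0.00330% of transcripts, or 1, did. At an unadjusted limma p under 0.05 BCR-002 was the 1 higher and BCR-001 the 1 lower of the 27 transcripts of these genes, against 4.91% and 5.38% of all transcripts. Simulated transcripts altered by a log2 value of 3 were called in 3.2% of cases and those altered by 5 in 13.0%. In simulated data this test thus left most changes uncalled, and these shares need not hold for the measured data. A listing at 0 in both controls with at least 5 TPM in both shPHF8 libraries occurred in 52 transcripts, or 0.172%. Among 7739 genes with several listed transcripts, 3.70% had 1 leading transcript in both controls and another in both shPHF8 libraries, as BCR did. Between 2 single libraries, a looser measure, the leading transcript differed in 24.5% of those genes for the 2 controls and in 24.5% for the 2 shPHF8 libraries. For a control against a shPHF8 library it differed in 24.8% to 25.7%. An exact 0 in a table without counts can be a failed estimate.

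**Figure D3:**
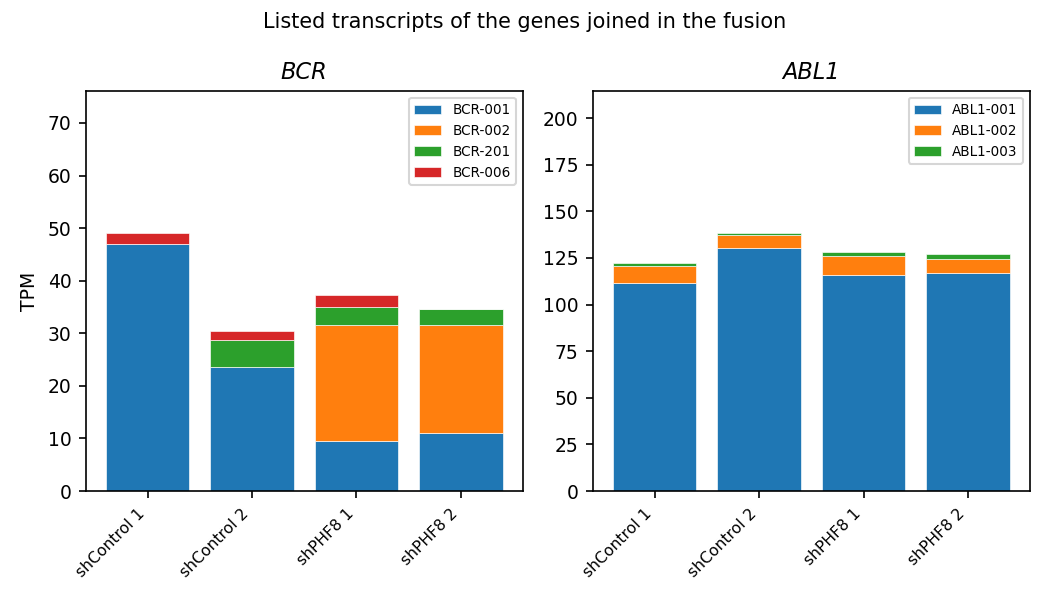
Stacked TPM of the listed transcripts of BCR (left) and ABL1 (right) in each of the 4 libraries, with 1 colour for each transcript. BCR-002 appears only in the bars of the shPHF8 libraries, at 22.0 and 20.5 TPM, while ABL1-001 makes up at least 90.2% of ABL1 in all 4 libraries.

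How BCR compares between groups depended on how its transcripts were combined. BCR-001, the transcript with the highest mean over the 4 libraries, gave a log2 fold change of -1.61 when each gene was tested by that transcript alone (limma with Benjamini-Hochberg adjusted p = 0.229). Weighting each TPM by the length of its transcript, which approximates the share of sequenced fragments, gave, on a scale set to the same total in every library as TPM are, 156 in shControl 1, 80.2 in shControl 2, 80.5 in shPHF8 1 and 80.4 in shPHF8 2. On that scale shControl 1 stood apart and the other 3 libraries were nearly equal. Its log2 fold change was -0.47 ± 0.34 (SE; limma with Benjamini-Hochberg adjusted p = 0.455). This weighting was added after the data were seen, and it leaves out BCR-201, which had no length. BCR-201 made up 0% of summed BCR TPM in shControl 1, 16.7% in shControl 2, 9.20% in shPHF8 1 and 8.92% in shPHF8 2. The gap to shControl 1 and the near equality of the other libraries therefore depend in part on its omission. None of the 3 summaries passed the test. With the transcript of highest mean over the libraries in place of the sums (ABL1-001 and BCR-001), the ratio of ABL1 to BCR was 2.38 and 5.50 in the controls and 12.2 and 10.6 in the shPHF8 libraries, a log2 difference of 1.65 in place of 0.08.

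**Figure D4:**
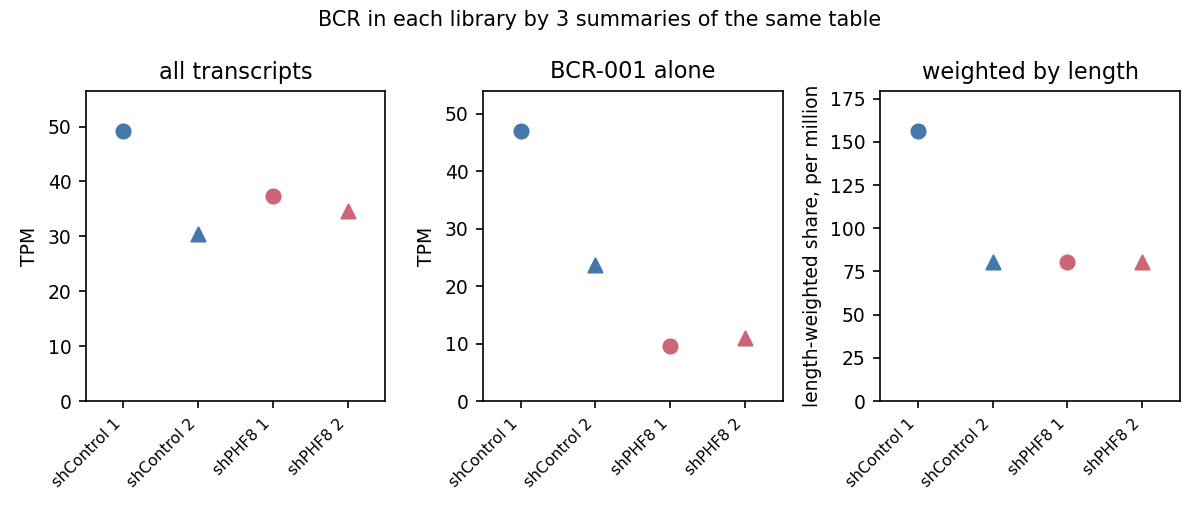
BCR in each of the 4 libraries by all transcripts summed (TPM, left), by BCR-001 alone (TPM, middle) and by TPM weighted by transcript length (scaled like TPM to a fixed total, right), with blue for shControl and red for shPHF8. The shPHF8 libraries lie between the controls on the left, below both in the middle at 9.52 and 11.0 TPM, and level with shControl 2 on the right. BCR-201 is left out of the right panel.

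ABL1 kept 1 leading transcript throughout. ABL1-001 was at 112 and 130 TPM in shControl and at 116 and 117 TPM in shPHF8 libraries, between 90.2% and 94.0% of the gene. ABL1-002, the form with the myristoylation signal, was at 9.26 and 7.46 TPM in shControl and at 10.2 and 7.31 TPM in shPHF8 libraries. Its values overlapped, and its difference changed sign without shControl replicate 2 or shPHF8 replicate 1. ABL1-003, an incomplete model of 2 exons, lay higher in both shPHF8 libraries, at 2.39 and 2.63 TPM against 1.28 and 0.86 TPM, and did not pass (limma with Benjamini-Hochberg adjusted p = 0.589). The exons that ABL1-001 and ABL1-002 share are also those of the fused message, which the table does not list on its own.

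CRKL, the adaptor that binds the ABL1 part, had the most even values of the 8 genes within the control group. It was at 258 and 262 TPM in shControl and at 285 and 294 TPM in shPHF8 libraries, from its single listed transcript. Both shPHF8 libraries lay above both controls, by a log2 fold change of 0.15 ± 0.06 (SE), or 1.11-fold, short of the threshold (limma with Benjamini-Hochberg adjusted p = 0.250). The 95% interval allows a level from 0.992 to 1.25 times the control. The direction was the same in all 13 alternative analyses, with log2 values from 0.13 to 0.18. As the groups did not overlap, leaving out 1 library could not reverse it, and several other settings left the estimate unchanged.

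GRB2, the adaptor that links the BCR part to RAS signalling, varied most. Its summed level was 48.6 and 36.4 TPM in shControl libraries, 26.3 TPM in shPHF8 1 and 103 TPM in shPHF8 2. The shPHF8 libraries thus lay on either side of both controls, 3.93-fold apart, and 98.9% of genes differed by as much or less between these 2 libraries. The log2 fold change of 0.31 ± 0.69 (SE) became -0.66 without shPHF8 replicate 2 and 1.27 without shPHF8 replicate 1, so no direction can be given. Most of the excess in shPHF8 2 was GRB2-001, at 94.0 TPM, against 32.7, 26.6 and 19.8 TPM in the other libraries. GRB2-201 was at 5.31 and 9.78 TPM in shControl and at 6.42 and 2.12 TPM in shPHF8 libraries, and made up between 2.05% and 26.9% of the gene. It lacks the 123-base coding exon 4 of GRB2-001, which is shown because its loss shortens the SH2 domain, the part that grips phosphotyrosine (GENCODE release 29 on GRCh38, minus strand, chr17:75325898-75326020).
GRB2-001 exon 4: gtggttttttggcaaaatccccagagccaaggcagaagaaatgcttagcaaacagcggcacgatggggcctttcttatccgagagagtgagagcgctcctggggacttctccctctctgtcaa
GRB2-001 codes for 217 amino acids and GRB2-201 for 176. GRB2-003, which also codes for 217 amino acids and lacks the first exon of GRB2-001, was at 5.66 TPM in shControl 1 and 7.04 TPM in shPHF8 2 and under 0.1 TPM in the other libraries. GRB2-004 was at 4.90 TPM in shControl 1, 0.000161 TPM in shControl 2 and listed at 0 in both shPHF8 libraries.

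SOS1, the RAS exchange factor carried by GRB2, had overlapping sums in the 2 groups. It was at 56.4 and 48.2 TPM in shControl and at 50.02 and 47.6 TPM in shPHF8 libraries, a log2 fold change of -0.09 ± 0.12 (SE). The groups overlapped, and the value was 0.019 without shControl replicate 1. Its transcripts were divided differently in shControl 2 only. There SOS1-201 was at 18.8 TPM and SOS1-001 at 19.1 TPM, whereas SOS1-201 was at 52.8, 45.5 and 40.1 TPM and SOS1-001 at 0.136, 1.89 and 3.84 TPM in shControl 1, shPHF8 1 and shPHF8 2. Both models code for the same 1333 amino acids and differ at both ends outside the coding part. SOS1-003, which lacks a 45-base coding exon, was at 3.52 and 10.3 TPM in shControl and at 2.64 and 3.65 TPM in shPHF8 libraries.

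GAB2, the scaffold of PI3-kinase signalling, had nearly equal sums in 3 libraries but drew them from different transcripts. The sums were 118 and 80.9 TPM in shControl and 81.3 and 81.7 TPM in shPHF8 libraries, so that shControl 1 stood apart. The log2 fold change of -0.26 ± 0.20 (SE) was 0.012 without shControl replicate 1. GAB2-002 was at 72.3 TPM in shControl 1 and 57.4 TPM in shPHF8 1 but at 0.016 TPM in shControl 2 and 0.0359 TPM in shPHF8 2. GAB2-001 was at 42.4 and 19.7 TPM in the former pair and at 80.4 and 81.0 TPM in the latter. Each group therefore held 1 library of either kind, and a difference between the groups cannot be read from either transcript.

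These GAB2 transcripts start at separate places, and the coding part of the first exon of GAB2-001 is shown because GAB2-002 lacks it (GENCODE release 29 on GRCh38, minus strand, chr11:78417646-78417720, start codon in capitals).
GAB2-001 first exon, coding part: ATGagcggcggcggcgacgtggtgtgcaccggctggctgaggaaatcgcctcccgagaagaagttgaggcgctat
It encodes the beginning of the pleckstrin homology domain, which binds membrane lipids, and GAB2-001 codes for 676 and GAB2-002 for 638 amino acids. The RefSeq windows around the 2 starts are shown to compare their base composition, each on GRCh38.p14, minus strand, with every CG in capitals: chr11:78417771-78418070 holds the first base of GAB2-001 and chr11:78341870-78342169 that of GAB2-002.
GAB2-001 promoter: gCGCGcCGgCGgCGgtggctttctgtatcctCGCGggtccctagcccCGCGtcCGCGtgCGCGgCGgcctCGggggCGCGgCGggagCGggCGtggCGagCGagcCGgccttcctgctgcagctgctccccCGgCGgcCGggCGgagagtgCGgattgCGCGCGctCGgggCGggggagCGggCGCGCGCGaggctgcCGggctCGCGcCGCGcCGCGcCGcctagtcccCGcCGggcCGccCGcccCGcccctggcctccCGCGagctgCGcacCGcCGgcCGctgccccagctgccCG
GAB2-002 promoter: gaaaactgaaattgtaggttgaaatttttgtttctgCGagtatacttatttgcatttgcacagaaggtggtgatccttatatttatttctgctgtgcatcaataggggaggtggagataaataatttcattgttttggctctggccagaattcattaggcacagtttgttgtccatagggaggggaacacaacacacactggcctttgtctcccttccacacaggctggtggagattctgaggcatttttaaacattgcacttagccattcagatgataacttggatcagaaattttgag
The former holds 58 CG dinucleotides, and 99.9% of 35116 windows hold as many or fewer. The latter holds 1, and 11.0% of windows hold as many or fewer.

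**Figure D5:**
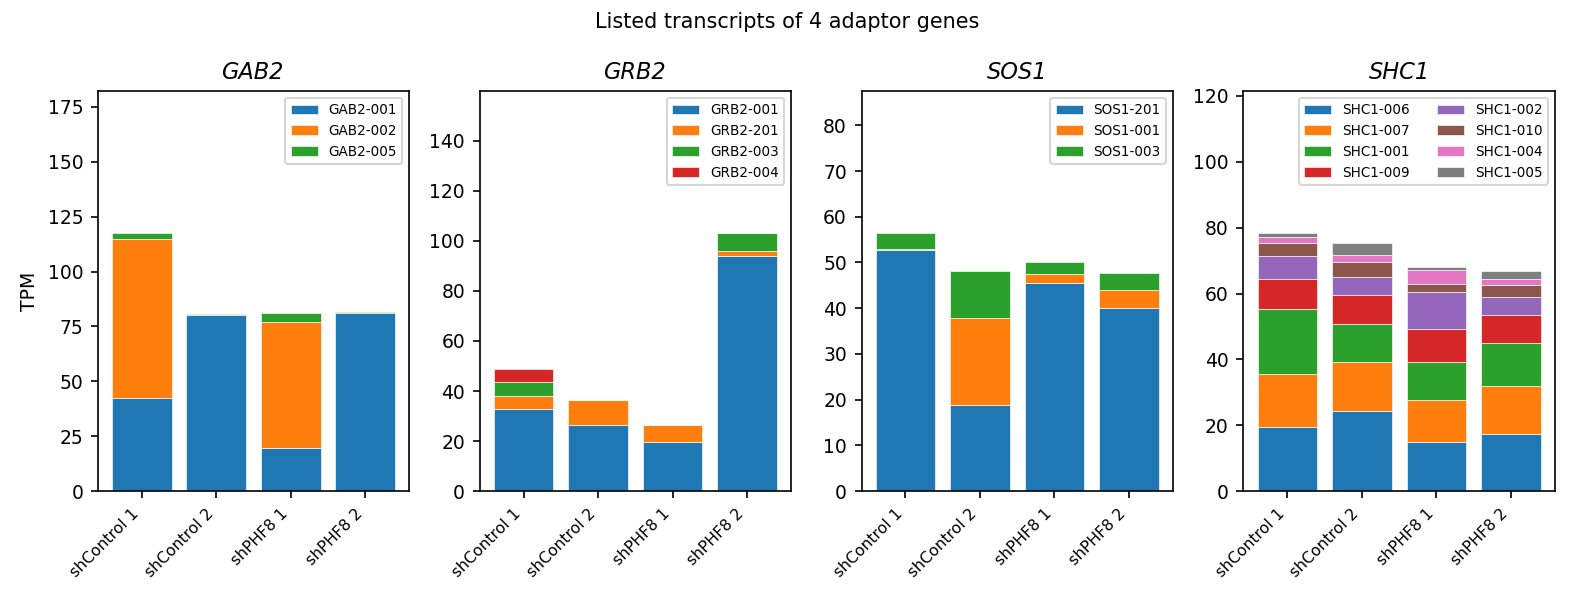
Stacked TPM of the listed transcripts of GAB2, GRB2, SOS1 and SHC1 in each of the 4 libraries, with 1 colour for each transcript and a separate vertical scale in each panel. GAB2-002 fills most of the bars of shControl 1 and shPHF8 1 (72.3 and 57.4 TPM) and is absent from the others at this scale, and SOS1-001 reaches 19.1 TPM only in shControl 2.

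SHC1 and CBL lay slightly lower in both shPHF8 libraries. SHC1, from 8 listed transcripts, was at 78.4 and 75.4 TPM in shControl and at 68.2 and 66.7 TPM in shPHF8 libraries. The groups did not overlap, and the difference of -0.19 ± 0.09 (SE) on the log2 scale missed the threshold (limma with Benjamini-Hochberg adjusted p = 0.303). GENCODE release 29 names 2 SHC1 pseudogenes, with which reads may have been shared. SHC1-006 and SHC1-007, which encode the p52 and p46 forms that feed RAS signalling, summed to 35.6 and 39.3 TPM in shControl and to 27.6 and 31.9 TPM in shPHF8 libraries. SHC1-001 and SHC1-002, which encode the longer p66 form linked to oxidative stress, summed to 26.3 and 16.9 TPM in shControl and to 23.0 and 18.3 TPM in shPHF8 libraries. The former pair of sums separated the groups and the latter did not, and the difference between them was not tested. Among the other SHC1 models, SHC1-009 ranged from 8.66 to 9.90 TPM over the 4 libraries, and the remaining 3 were below 5 TPM in each.

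CBL, the ubiquitin ligase, was at 30.7 and 27.1 TPM in shControl and at 25.4 and 24.5 TPM in shPHF8 libraries, from 1 listed transcript. Its log2 fold change was -0.20 ± 0.13 (SE; limma with Benjamini-Hochberg adjusted p = 0.428), and the 95% interval allows a level from 0.683 to 1.11 times the control. SHC1 and CBL kept their direction in all 13 alternative analyses, from -0.41 to -0.16 for SHC1 and from -0.29 to -0.11 for CBL. For these genes too the groups did not overlap, so leaving out 1 library could not reverse the direction. In the same libraries the sum of granulocyte and monocyte markers was lower than in the controls, as given above, and its part in these small differences was not tested.

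Over all 27 transcripts, 3 lay higher and 6 lower in both shPHF8 libraries than in both controls, against 21.0% and 22.2% of all transcripts tested. Those higher were BCR-002, ABL1-003 and CRKL-001, and those lower were BCR-001, CBL-001, SHC1-006, SHC1-007, SHC1-010 and GRB2-004. GRB2-004 counts as lower only because shControl 2 was at 0.000161 TPM, against 0 in both shPHF8 libraries. Of the 6 genes with several listed transcripts, ABL1 and GRB2 had the same leading transcript in all 4 libraries, as did 58.3% of the 7739 genes of this kind. The leading transcript differed between the 2 controls in 3 genes (GAB2, SHC1 and SOS1) and between the 2 shPHF8 libraries in 1 (GAB2), against 24.5% of the 7739 genes in each group.

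Genes of the same pathway were taken from 3 lists: paralogues of these genes, partners that bind the fusion kinase or its adaptors, and negative regulators, with CBLB in 2 of them. By limma with Benjamini-Hochberg adjustment 0 genes of any list passed. Of 7 paralogues tested among 13, 2 were higher and 1 lower at an unadjusted limma p under 0.05, against 9.90% and 12.1% of all genes. Their median log2 fold change was 0.44, and it was 0.21 without shControl replicate 1 and 0.21 without shPHF8 replicate 1. GAB1, the paralogue of GAB2, was at 13.9 and 16.7 TPM in shControl and 24.4 and 28.7 TPM in shPHF8 libraries. ABL2, the paralogue of ABL1, was at 13.1 and 8.98 TPM in shControl and 17.3 and 21.4 TPM in shPHF8 libraries. SOS2, the paralogue of SOS1, was at 34.3 and 27.7 TPM in shControl and 21.4 and 22.6 TPM in shPHF8 libraries. GAB3 was at 25.5 and 22.7 TPM in shControl and 39.0 and 27.9 TPM in shPHF8 libraries. In each of these 4 the groups did not overlap, as in 26.0% (higher) and 29.3% (lower) of all genes tested. The 4 were named for the smallest p of the list, a choice that favours such separation, so nothing is read from it. Their adjusted p ran from 0.126 to 0.307 (limma, Benjamini-Hochberg).

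Of 17 partners tested among 20, 2 were higher and 2 lower at an unadjusted limma p under 0.05, close to the 9.90% and 12.1% of all genes. Their median of 0.11 was -0.13 without shControl replicate 2 and -0.06 without shPHF8 replicate 2. RAC1, a GTPase regulated by the exchange and activating domains of BCR, had the smallest p: it was at 177 and 168 TPM in shControl and at 327 and 348 TPM in shPHF8 libraries, a log2 fold change of 0.97 ± 0.07 (SE; limma with Benjamini-Hochberg adjusted p = 0.0560). Of the listed genes it alone passed under quantile normalization. The phosphatase PTPN11, known as SHP2 and recruited by GAB2, was at 163 and 154 TPM in shControl and at 182 and 193 TPM in shPHF8 libraries. VAV1, an exchange factor, was at 24.5 and 29.4 TPM in shControl and 17.2 and 12.6 TPM in shPHF8 libraries, and the kinase FYN at 42.6 and 39.3 against 28.4 and 31.4 TPM.

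Of 17 negative regulators tested among 18, 1 was higher and 4 lower at an unadjusted limma p under 0.05, against 9.90% and 12.1% of all genes. A value below 0 was found for 13 of the 17 and for 5708 of the 10972 genes tested, and the median of -0.22 was -0.13 without shPHF8 replicate 1. SOCS1, a brake on cytokine signalling, was at 17.1 and 28.4 TPM in shControl and 2.99 and 3.12 TPM in shPHF8 libraries (limma with Benjamini-Hochberg adjusted p = 0.0696). The phosphatase PTPN1 was at 113 and 113 TPM in shControl and 94.2 and 90.4 TPM in shPHF8 libraries. SPRY2, an inhibitor of receptor signalling to RAS, was at 15.0 and 12.6 against 9.85 and 8.19 TPM. The phosphatase PTPN12, named after its values were seen to complete the 4, was at 80.2 and 68.6 against 60.8 and 55.0 TPM. RASA1, which returns RAS to its inactive state, was at 22.3 and 19.0 TPM in shControl and 27.3 and 29.6 TPM in shPHF8 libraries. The median over all genes tested was -0.02, and nothing particular to a list is read from these counts.

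The genes whose pattern over the 4 libraries came nearest to each member were found by the Euclidean distance between log2 values of TPM + 1 centred on their mean, among genes with at least 0.5 times the member's range. For BCR they were BCAP29 and CNOT6L (distances 0.0524 and 0.0553), and for ABL1 they were ADRM1 and KAT5 (0.0119 and 0.0198). For CRKL they were SCCPDH and TGFB1 (0.00398 and 0.00469) and for SHC1 HNRNPA1 and AGPAT1 (0.00621 and 0.00867). For CBL they were PLEKHA5 and NAPRT (0.0157 and 0.0175), for GAB2 PSAT1 and CDC16 (0.0453 and 0.0608) and for SOS1 MAGEA9B and MECR (0.0178 and 0.0206). GRB2 had the most distant matches, with RNPEPL1 at 0.217 and AP5S1 at 0.323. The distances rest on 4 libraries and were not scaled, so they depend on the size of a gene's range as well as on shape. GRB2 also had the widest range, 1.93 on the log2 scale against 0.189 for CRKL.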

How the data were processed

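RNA-seq values of 2 shControl and 2 shPHF8 libraries of K562 were analysed, grouped by their titles. The authors deposited 1 table of TPM per transcript, per the file headers; HISAT2 2.0.4, StringTie 1.2.3 and hg19 are named per the submitters' processing notes, and the annotation is not given in the sources used here. A second set of 4 deposited columns, a signal of unstated unit, was a constant multiple of TPM within each library (3.1552 to 3.1872) and was not used. TPM were summed per gene name and tested as log2(TPM + 1) with limma 3.58.1 in R 4.3.3 (empirical Bayes with trend, 2 residual and 2.16 prior degrees of freedom for genes, 1.58 for transcripts), with Benjamini-Hochberg adjustment over all 10972 genes or 30266 transcripts with a mean of at least 1 TPM, at 0.05. The smallest exact p for 2 libraries against 2 is 0.333 (two-sided), and no such test was run. Both steps were tested on simulated data. The genes, lists and named-gene rule (all 8 genes, their transcripts with a mean of at least 1 TPM, the 4 smallest p per list, 2 nearest patterns per gene) were chosen with earlier results of these data known. In the erythroid marker list 1 gene is not reported here and was left out of its sum. Transcript models came from GENCODE release 29 on GRCh38, matched by ID without version (26 of 27), and promoter windows from RefSeq (7 of 8 genes, not CBL). Alternatives changed the pseudocount, filter, scaling, trend, block, libraries and summary of transcripts. Python 3.11.15, pandas 2.3.3 and matplotlib 3.10.9 were used.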

Additional observations from a re-analysis of the deposited data

How the results depend on the processing

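Of the 8 genes, 0 passed limma with Benjamini-Hochberg adjustment under any alternative that kept all 4 libraries. CRKL, CBL and SHC1 kept their direction under all 13, where leaving out 1 library could not reverse it. With TPM weighted by length, a summary chosen after seeing the data, the unadjusted limma p was 0.0391 for CRKL (higher) and 0.0498 for SHC1 (lower). Their adjusted p were 0.187 and 0.207 (limma, Benjamini-Hochberg), and the share of all genes under an unadjusted 0.05 with this weighting is not given here. BCR ran from -0.44 to 0.23 when 1 library was left out and was -1.61 from its transcript of highest mean, and ABL1 ran from -0.12 to 0.063. Without 1 library GRB2 ran from -0.66 to 1.27, GAB2 from -0.52 to 0.012 and SOS1 from -0.21 to 0.019, and SOS1 was 0.42 from its transcript of highest mean. The cause of these shifts was not tested.

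Over all genes, 17 were called higher and 20 lower under quantile normalization, 10 and 11 with the transcript of highest mean for each gene, and 54 and 66 with TPM weighted by length (chosen after seeing the data, 222 transcripts without a length left out), none of them among the 8. Of transcripts, the 1 higher call became 0 with no filter or no trend or without any 1 library (0 to 0), and 2 higher and 2 lower were called with a mean of at least 5 TPM and under quantile normalization. The log2 difference in the ratio of ABL1 to BCR was 1.65 from the same transcripts and ran from -0.36 to 0.51 when 1 library was left out. The median log2 of all genes was 0.004 under quantile normalization and -0.003 under median-of-ratios scaling.

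Whether libraries with the same number share anything more is not said. Their deviations correlated at -0.029 over genes and 0.003 over transcripts, and a value over all features does not settle it for single ones. With the number as a replicate block 0 genes and 0 transcripts were called, CRKL was at 0.15 (limma with Benjamini-Hochberg adjusted p = 0.376), and the unadjusted counts became 1 higher and 0 lower for paralogues, 1 higher for partners and 0 higher for negative regulators. Under quantile normalization 1 partner was called higher and 2 negative regulators were higher at unadjusted p. Without 1 library, paralogues had 1 to 2 higher and 0 to 1 lower, partners 1 to 3 higher and 1 to 2 lower, and negative regulators 0 to 1 higher and 1 to 3 lower at unadjusted p, and the medians ran from 0.21 to 0.63, from -0.13 to 0.12 and from -0.22 to -0.13.

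Transcript differences whose sign changed are given as their range over leaving out each library: ABL1-001 from -0.16 to 0.060, ABL1-002 from -0.17 to 0.26, BCR-006 from -1.55 to 0.17, BCR-201 from -0.51 to 2.09, GAB2-001 from -1.52 to 0.47, GAB2-002 from -3.24 to 2.94, GAB2-005 from -0.53 to 1.11, GRB2-001 from -0.55 to 1.64, GRB2-003 from -1.35 to 1.64, SHC1-001 from -0.63 to 0.092, SHC1-002 from -0.16 to 0.81, SHC1-004 from -0.14 to 0.76, SHC1-005 from -0.84 to 0.34, SHC1-009 from -0.064 to 0.11, SOS1-001 from -2.42 to 1.72, SOS1-201 from -0.30 to 1.14. SOS1-001 was 0.40 with a pseudocount of 0.1. TPM carry no counts, so what depth limits here is unknown.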

Other observations

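Promoter windows of 300 bases were also available for ABL1, CRKL, GRB2, SHC1 and SOS1 (RefSeq, GRCh38.p14). ABL1 had 42 CG dinucleotides, CRKL 39 and GRB2 35, and for CRKL and GRB2 92.4% and 87.3% of 35116 windows held as many or fewer. SHC1 had windows with 17 and 7 and SOS1 windows with 9 and 19. The letters CCAAT or their reverse complement ATTGG occurred in the windows of BCR, ABL1 and CRKL, in both SHC1 windows and in 1 of 2 SOS1 windows, against 34.6% of all windows. These are counts of letters, with no measurement of binding.

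The summed TPM of the 8 genes was 761 and 699 in shControl 1 and 2 and 702 and 779 in shPHF8 1 and 2, so the groups overlapped.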
